A study of Mus musculus with 24 samples.

Results

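The fragments described here are the CpG island cores that were methylated in the brown adipose tissue (BAT) of vehicle litters: 54 of the 6995 island core fragments with enough calls, among 9502 core fragments and 65535 fragments in all. The table analysed here ends within chromosome 3, so these counts and those of gene lists cover that stretch and not the genome. They were selected on their measured VEH methylation, as fragments that the authors placed in the core of a CpG island, that had at least 10 methylation calls in at least 8 of the 12 vehicle (VEH) libraries, and whose level, the methylated calls over all calls, averaged at least 70% over those libraries. Their VEH levels therefore chose them and are given as a description with no test. Of the other covered cores, 6813 averaged under 20% and 128 lay between 20% and the threshold. The 54 methylated cores lay in 35 islands, where a run of core fragments with no gap over 500 bases is taken as 1 island.

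Methylation was read by reduced representation bisulfite sequencing (RRBS), in which MspI cuts DNA at CCGG and each short fragment is scored for cytosines that bisulfite did not convert. All libraries came from BAT of infant female C57BL/6J mice at postnatal day (PND) 12. In 12 litters (DDT) the dam had been gavaged with the p,p' and o,p' isomers of DDT from mid-gestation until shortly after birth, and in 12 litters (VEH) with the olive oil in which it was dissolved. Each library pooled littermates, so the litter was the replicate, and a change in some cells of a pool cannot be told apart from a change in the share of those cells. The tissue label could be looked at only through levels near the starts of marker genes, and no cell type was called from them. The adipocyte genes Fabp4, Fabp5, Cebpb and Rxrg averaged 10.04%, 1.27%, 2.88% and 9.57% in VEH, and the muscle genes Myog, Des and Ttn 64.2%, 10.3% and 13.7%.

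CpG islands are stretches of DNA that have kept most of their CpG sites, usually because they stay free of methylation in the germline, and most of them lie at gene starts. A minority is methylated in somatic tissue. Known examples are islands at genes used only in germ cells, islands that carry the mark of 1 parent at imprinted genes, and CpG-rich parts of transposable elements, where methylation is part of silencing. A methylated cytosine can deaminate to thymine, so that CpG sites are lost over time and TG and CA are gained.

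The 54 cores fell into 4 kinds by sequence and position, neither of which entered the rule except through the island core class. In 38 cores, at 25 islands, most of the bases were soft-masked as repeat in the GRCm38 sequence. Another 13, at 7 islands, were not repeats and lay within 1000 bases of the start of a protein-coding gene in GENCODE M21. A further 2 lay in processed pseudogenes (Gm5522 and Gm8762). The last, assigned by the authors to AC137844.2, was 109911 bases from the nearest coding start and was not repeat by this measure. No repeat family is named, because the masking in the sequence gives none.

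The sequences that carry these kinds are shown from the forward strand of GRCm38 in lower case, with each CpG in capitals. The first set shows repeat fragments from distant islands that are near copies of each other: 4832428D23Rik fragment 1 at chr1:44481493-44481542, 4832428D23Rik fragment 3 at chr1:44481705-44481755, Hsfy2 at chr1:56714719-56714768, Serpinb3c at chr1:107823450-107823499 and Cntnap5a at chr1:115447410-115447459.
4832428D23Rik fragment 1: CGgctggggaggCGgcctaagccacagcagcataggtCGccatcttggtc
4832428D23Rik fragment 3: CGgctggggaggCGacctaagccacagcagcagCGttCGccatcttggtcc
Hsfy2: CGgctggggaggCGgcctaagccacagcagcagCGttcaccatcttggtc
Serpinb3c: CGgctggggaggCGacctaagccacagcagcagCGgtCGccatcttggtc
Cntnap5a: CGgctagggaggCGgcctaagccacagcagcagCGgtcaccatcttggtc

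Another repeat sequence was shared by F830104G03Rik at chr3:57061229-57061280 and AC130840.1 at chr3:93922606-93922657, and is shown because it recurs on chromosomes 1 and 3.
F830104G03Rik: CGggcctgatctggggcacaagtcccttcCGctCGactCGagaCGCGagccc
AC130840.1: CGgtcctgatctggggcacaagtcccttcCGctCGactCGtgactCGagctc

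The next set shows cores at the starts of germline genes, for contrast in their CpG density: Mael at chr1:166238723-166238772, Sycp1 upstream at chr3:102936148-102936195, Sycp1 intron at chr3:102935467-102935502 and Slc25a31 at chr3:40708976-40709043.
Mael: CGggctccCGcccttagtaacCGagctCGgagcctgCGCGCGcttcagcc
Sycp1 upstream: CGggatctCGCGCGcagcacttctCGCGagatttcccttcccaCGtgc
Sycp1 intron: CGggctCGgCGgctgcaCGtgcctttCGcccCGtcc
Slc25a31: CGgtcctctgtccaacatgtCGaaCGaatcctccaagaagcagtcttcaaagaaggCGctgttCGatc

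The last set shows cores at imprinted genes: Nnat at chr2:157560274-157560310 and Gnas at chr2:174284689-174284751.
Nnat: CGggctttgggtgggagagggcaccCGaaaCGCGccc
Gnas: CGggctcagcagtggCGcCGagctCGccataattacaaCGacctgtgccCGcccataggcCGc

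Libraries held 8371958 to 13768991 calls in VEH and 9895508 to 14124652 in DDT, and the median methylated core had 324 calls in the median VEH library, with a range over cores of 12 to 11704.5. DDT replicates 4 and 12 stood apart from the other libraries: the methylated cores took 0.213% and 0.145% of their calls, against 0.338% to 0.639% elsewhere, and the mean length of the fragments behind their calls was 61.3 and 71.0 bases, against 47.2 to 57.6. DDT replicate 4 had a level at 23 of the 54 cores and DDT replicate 12 at 47, against 44 to 54 in the other DDT libraries and 47 to 54 in VEH. Values that rest on these libraries are given with and without them. Whether 2 libraries are the same material cannot be settled from calls, which are not independent, but the closest pair of libraries (DDT replicate 11 and VEH replicate 12) still differed by a mean chi-square of 1.72 per fragment.

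The VEH mean ran from 71.6% to 99.5% over the 54 cores, with a median of 90.1%. Levels were at least 90% in 27 cores, between 80% and 90% in 17 and between 70% and 80% in 10. All 12 VEH libraries had a level at 44 of them. Just outside the threshold lay cores at Boll, a germline RNA-binding protein gene (69.7% ± 8.71, SD over the 12 VEH libraries), at AC122246.1 (68.8% ± 4.12) and at the imprinted gene Mcts2 (68.72% ± 8.80). Just inside lay cores at Gnas (71.6% ± 10.7), Henmt1 (71.9% ± 12.2) and Cd93 (72.9% ± 4.93), so the cores on either side of the threshold differed by less than the spread between libraries.

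**Figure D1:**
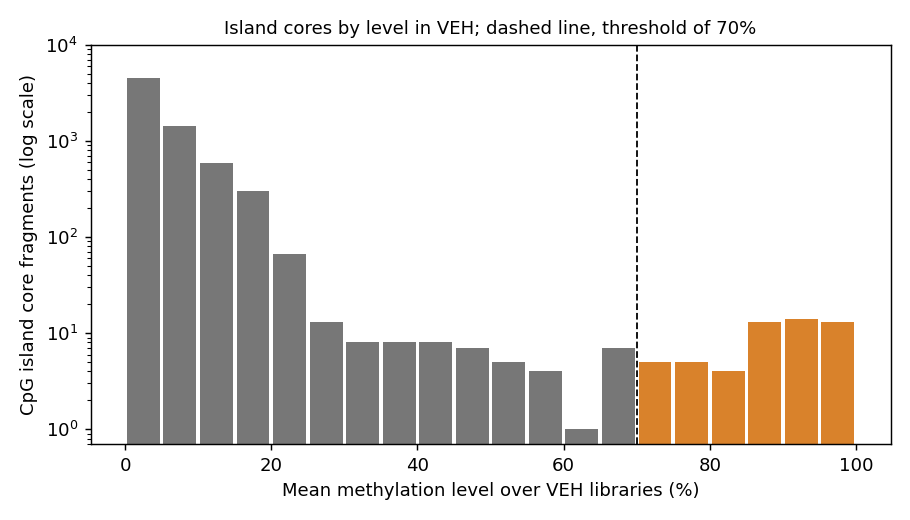
Number of covered CpG island cores by mean VEH methylation level (percent), with the count on a log axis. Most cores lie below 20% (6813), 128 lie between that and the threshold without a gap, and 54 lie at or above it.

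The repeat cores had the highest levels, with VEH means from 72.9% to 99.5% and a median of 92.7%, beside a median of 84.0% at the gene starts. The highest was 4832428D23Rik at chr1:44481543-44481659, whose 12 VEH libraries ran from 97.6% to 100% with a median of 99.6%. AC130840.1 at chr3:93922658-93922813 was nearly as high, from 98.2% to 99.8% with a median of 99.2%. At the low end, Cd93 at chr2:148460593-148460758 ran from 61.4% to 80.6%, with a median of 73.8% on 29 to 85 calls per library. Depth varied at every level, with a median of 12 calls in VEH at AC163659.1 (92.4%) and of 3913 at AC122246.1 (87.7%).

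All 38 repeat cores lay outside genes in the authors' classes, as upstream of the gene to which they were assigned, and the nearest coding start was 5607 to 1848716 bases away (median 79173.5). The assigned gene names of these cores (among them Il1b, Cd93, Ptgs2, Serpinb3c and Kcnh7) therefore name a distant neighbour and not an island at that gene's start. Cores at coding starts that were also masked as repeat had other levels: of 152 repeat cores within 1000 bases of a coding start, 149 averaged under 20% in VEH and 0 reached the threshold. Of the 48 repeat cores farther away, 38 reached it and 5 averaged under 20%. The masked cores also differed in sequence. The 162 below the threshold had a median of 1 genome copy of their more frequent 30-base end, 80.2% GC and an observed to expected CpG ratio of 0.967. The 38 methylated ones had 624.5 copies, 65.8% and 0.660. The parts that position and sequence play were not tested. Across the covered cores, repeat sequence was found in 70.4% of the methylated cores, in 6.25% of the intermediate ones and in 2.26% of those under 20%.

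**Figure D2:**
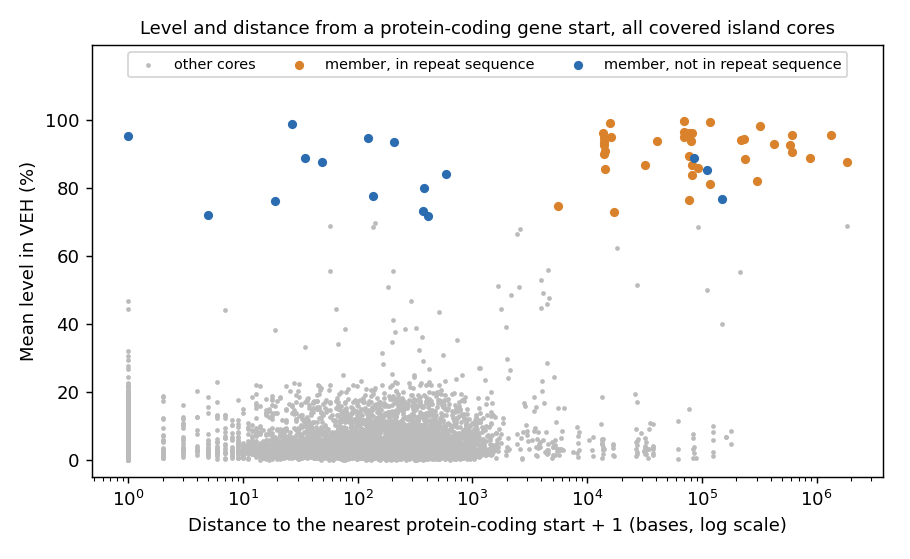
Mean VEH level (percent) of covered island cores against the distance to the nearest protein-coding start plus 1 (bases, log axis), with methylated cores in and outside repeat sequence coloured apart from the other cores. The 38 methylated repeat cores lie between 5607 and 1848716 bases from a coding start, while the cores under 20% have a median distance of 119 bases.

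Many of these repeat cores had ends that recur in the genome. A 30-base end of the fragment was found more than 1 time in GRCm38 for 33 of the 38, with a median of 624.5 copies of the more frequent end and up to 5603, and the remaining 5 had unique ends. Among all covered cores, 27 had an end with 100 or more copies, of which 23 were methylated and 1 averaged under 20%. As whole fragments, 30 of the 38 occurred 1 time in the assembly and 8 more often. Serpinb3c, with 1543 whole copies, had VEH levels of 89.4% to 100%. How calls were assigned among identical copies is not given in the sources used here, so the level of a fragment with identical copies may include calls from other copies.

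Comparison of the repeat cores with each other, on either strand and at 80% identity or more, gave 3 groups. The largest held 15 cores at 10 assigned genes, including the first set of sequences shown above, with VEH means from 72.9% (Cd93) to 96.4% (4832428D23Rik fragment 1). The 4832428D23Rik fragment 3 and Serpinb3c sequences were 98.0% identical, and their VEH means were 94.8% ± 1.15 and 93.9% ± 3.28. Hsfy2 and Cntnap5a were 96.0% identical, with 89.3% ± 2.46 and 88.4% ± 1.48. Other near copies differed more, since 4832428D23Rik fragment 3 and Hsfy2 were also 96.0% identical but averaged 94.8% and 89.3%, and their VEH ranges overlapped only from 93.1% to 94.3%. A group of 7 cores at 6 genes ranged from 92.9% (Kcnh7) to 99.5% (4832428D23Rik), and a group of 4 ranged from 88.8% (AC107678.1) to 95.01% (AC130840.1). F830104G03Rik and AC130840.1, shown above, were 92.3% identical and averaged 94.4% ± 0.851 and 95.01% ± 0.510.

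Neighbouring repeats of the same island could differ more. Gm14440 on chromosome 2 had the most methylated cores of any assigned gene, 5 within chr2:175053239-175053730, and the nearest coding start, of the gene Gm14393, was 14033 bases from the closest of them. Their VEH means were 85.4%, 90.7%, 92.6%, 93.3% and 89.9% in genomic order. At Il1b, in contrast, cores at chr2:129454827-129454902, chr2:129454914-129454982 and chr2:129454983-129455041 averaged 86.6%, 83.8% and 95.9%, and the VEH ranges of the second (80.6% to 86.2%) and the third (92.5% to 97.6%) did not overlap. Cst10 had a like pair, with 72.2% to 88.1% in 1 core and 96.6% to 100% in the next.

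The repeat cores were poorer in CpG than other methylated cores. The ratio of observed to expected CpG had a median of 0.660 in the repeat cores, 1.02 in the 16 other methylated cores and 0.941 in the cores under 20%. Over all 54 it was 0.710, and in windows of 500 bases it was 0.664, against 0.878 for the cores under 20%. In those windows it was 0.632 in the repeat cores and 0.809 in the 16 others, so the latter were above the cores under 20% only by fragment. The ratio for TG and CA, the products of CpG deamination, was 1.12 against 1.04. GC content was 66.0% against 72.9%, and the median length (58.5 and 59 bases) was nearly the same. In the sequences above, the Mael and Sycp1 upstream cores carry clusters of adjacent CpG sites, whereas the first repeat set carries 3 or 4 scattered ones.

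The word CGCCATCTT, the core of the sites bound by the factor YY1, was searched on both strands and found in 9 of the 38 repeat cores, in 0 of the 16 other methylated cores and in 39 of 6941 other covered cores (0.562%). It occurs in 1.40% of 32851 RefSeq promoters. Of the sequences above it is present in 4832428D23Rik fragments 1 and 3 and in Serpinb3c. The 9 cores include near copies of each other, so the count is not one of independent sites, and the match is a description of the sequence.

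The cores at gene starts described here belonged to genes of germ cells and imprinted genes. Among genes of a germline list, covered cores within 1000 bases of a start were found for 4: all 3 at Mael, the 1 at Slc25a31 and all 4 at Sycp1 were methylated, and 0 of 5 at Tdrd5 were, with a median of 3.61%. Matched by the authors' assigned gene instead, the list gave 17 covered cores with 4 methylated (Mael and Slc25a31), because the authors assigned the Sycp1 cores to Sike1, from which they lie 59534 to 60227 bases away. The lists were written with earlier results of these data known and support nothing by themselves.

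Mael, a gene of the piRNA pathway that silences transposons in the male germline, had its whole covered island methylated. The core at chr1:166238773-166238944, 26 bases upstream of the Mael start, had VEH levels of 97.1% to 99.8% with a median of 98.8%. The core across the start, shown above, ran from 94.0% to 96.5% with a median of 95.05%. Inside the gene, at chr1:166238596-166238710, levels were 72.0% to 100% with a median of 91.2%, on 10 to 99 calls per library. The start of Mael was thus methylated on both sides, with a wide spread only where calls were few.

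Sycp1, which encodes the transverse filaments of the synaptonemal complex in meiosis, was methylated both upstream and in an intron. The upstream core shown above, 48 bases from the start, had VEH levels of 83.4% to 90.5% with a median of 87.6%. The core beside it at chr3:102936118-102936147, 18 bases from the start, was lower and more variable, from 70% to 91.7% with a median of 74.6%. In the intron, chr3:102935816-102935882 ran from 88.7% to 95.8% (median 94.2%) and chr3:102935467-102935502 from 82.1% to 86.1% (median 83.9%, on 4782 to 14456 calls). The last was among the most precisely measured of the gene starts, with an SD of 0.993 points.

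Slc25a31, which encodes an ATP/ADP carrier of testis mitochondria, had its core in an exon 121 bases from the start. VEH levels ran from 93.1% to 96.2%, with a median of 94.5%. The whole fragment occurs 2 times in the assembly used here. Non-core fragments beside it averaged 89.2%, 69.4% and 82.8% in VEH, in genomic order. Henmt1, whose product methylates the ends of piRNAs, shares its start with the model Gm9857. Its core at chr3:108940343-108940441 had the widest spread of the 54, from 40.0% in VEH replicate 8 to 83.3%, with a median of 76.3% (71.9% ± 12.2). The next covered core of that island averaged 44.4% ± 12.5. Thus methylation was near complete in the Slc25a31 core and in parts of Mael and Sycp1, and incomplete at Henmt1.

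In RefSeq promoters of GRCm38.p6, from 250 bases before a gene start to 50 after, the E-box CACGTG was present for Mael (223 bases before the start), Sycp1 (94 before, inside the upstream core shown above) and Slc25a31 (93 before), and absent for Henmt1 and Nnat. It occurs in 7.15% of all such promoters. Among the cores it was in 3 of the 54 (5.56%), beside 1.70% of the 6941 other covered cores. The word TTCCCGC, a form of the E2F site, was in the Slc25a31 promoter and in 4.60% of all promoters. It was in 0 of the 54 cores, beside 2.90% of the other covered cores. Both strands were searched.

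Of 24 covered cores within 1000 bases of starts of imprinted genes, 3 were methylated, at Gnas and Nnat, and the median of the 24 was 4.90%. Imprinted genes are expressed from 1 parental copy, and their control regions are methylated on 1 copy, so that a level near the middle is the textbook expectation. The 2 Gnas cores are in adjacent fragments that overlap Gnas and the antisense gene Nespas, 369 and 406 bases from a Gnas start, and were assigned by the authors to Mir298. Gnas encodes the stimulatory G-protein subunit that couples adrenergic receptors to cyclic AMP. At chr2:174284689-174284751 the VEH libraries ran from 59.8% to 86.2% with a median of 76.5%, and at chr2:174284752-174284850 from 52.7% to 88.5% with a median of 72.5%. Calls per library numbered 486 to 1743 and 114 to 710, and the spread of the first was 6.84 times and of the second 3.97 times what counting alone would give if calls were independent.

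Nnat, a paternally expressed gene of membrane proteolipid type, lies inside the gene Blcap. Its core, 134 bases from the Nnat start, was placed in an intron by the authors and overlaps an exon of Nnat in GENCODE M21. VEH levels ran from 71.1% to 82.2%, with a median of 77.8%. The other covered core of the same island averaged 13.9% ± 2.96.

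**Figure D3:**
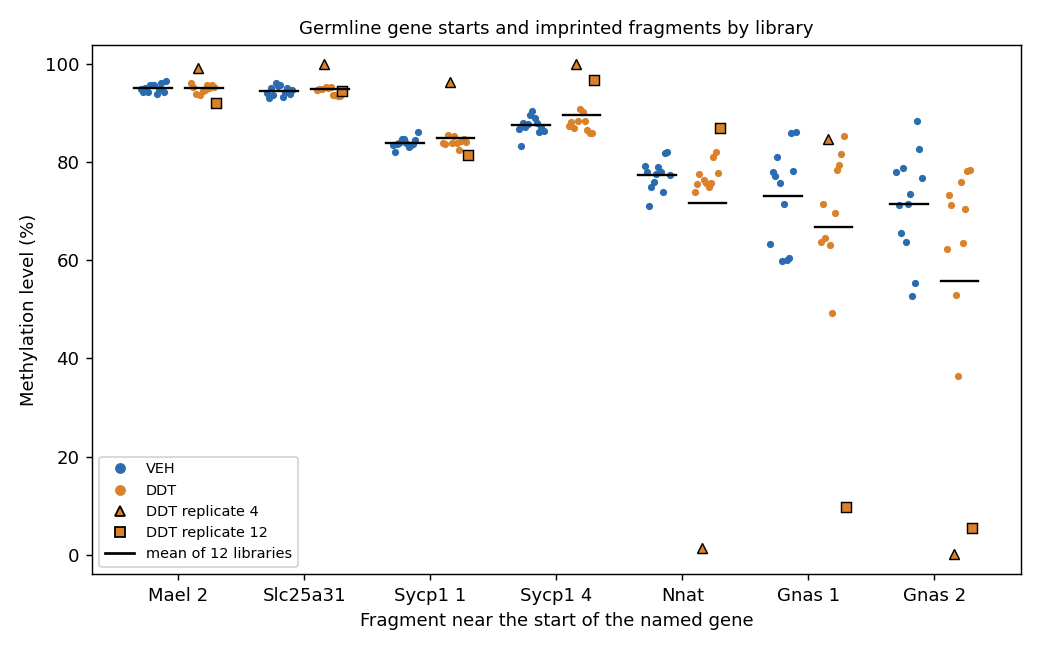
Methylation level (percent) of the 4 germline and 3 imprinted cores with a level in every library, 1 point a library, with group means as bars and DDT replicates 4 and 12 marked. The germline cores stay near their VEH range in most libraries, while Nnat falls to 1.29% in DDT replicate 4 and the second Gnas core to 0.0351% in DDT replicate 4 and 5.36% in DDT replicate 12.

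Of the 35 islands, 27 had only methylated cores among those covered. For 17 of them a single core was covered, so that the rule itself fixed this outcome. Of the 18 with several covered cores, 10 were methylated in each. Among the islands that were not methylated throughout, 3, those at Gm10115 and Nnat among them, also held a core under 20%. A core in the intermediate range was held by 6, and these counts overlap. Around them, 14 non-core fragments within 2000 bases of 9 islands had a median VEH level of 81.2%, and 9 were at 70% or more (64.3%). Around islands whose cores were under 20%, 875 such fragments had a median of 9.92%, and 8.0% were at 70% or more. In the authors' classes 48 of the 54 were upstream of a gene (88.9%) and 5 in a gene body (9.26%), against 37.0% and 55.9% for the cores under 20%. By GENCODE M21 models 24.1% of the 54 overlapped a gene, against 86.6% of the cores under 20%.

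Other lists held few methylated cores or none. Developmental transcription factors had 176 covered cores, brown fat and muscle lineage genes 55, and chromatin and DNA methylation genes 26, with 0 methylated in each. Of gene families, zinc fingers (109 cores), calcium channels (12), collagens (5), G-protein coupled receptors (29), receptor kinases (9), cadherins and axon guidance genes (65) and laminins with other matrix genes (17) also had 0. The Slc family had 1 of 154 (Slc25a31) and microRNAs 2 of 169 (both the Gnas cores assigned to Mir298). The imprinted list had 1 of 12 by assigned gene.

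The remaining 3 cores, in pseudogenes or away from genes, had many calls. The core in the processed pseudogene Gm5522, assigned to Cpa6, at chr1:10805307-10805338 had VEH levels of 87.1% to 90.1% with a median of 88.6%. The core in Gm8762, assigned to AC125186.2, at chr1:136789389-136789426 was lower, from 68.6% to 80.3% with a median of 77.0%, and the next core of the island averaged 40.1%. AC137844.2 at chr3:5860717-5860755 had the most calls of any of the 54, and VEH levels of 80.1% to 87.3% with a median of 85.3%.

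**Figure D4:**
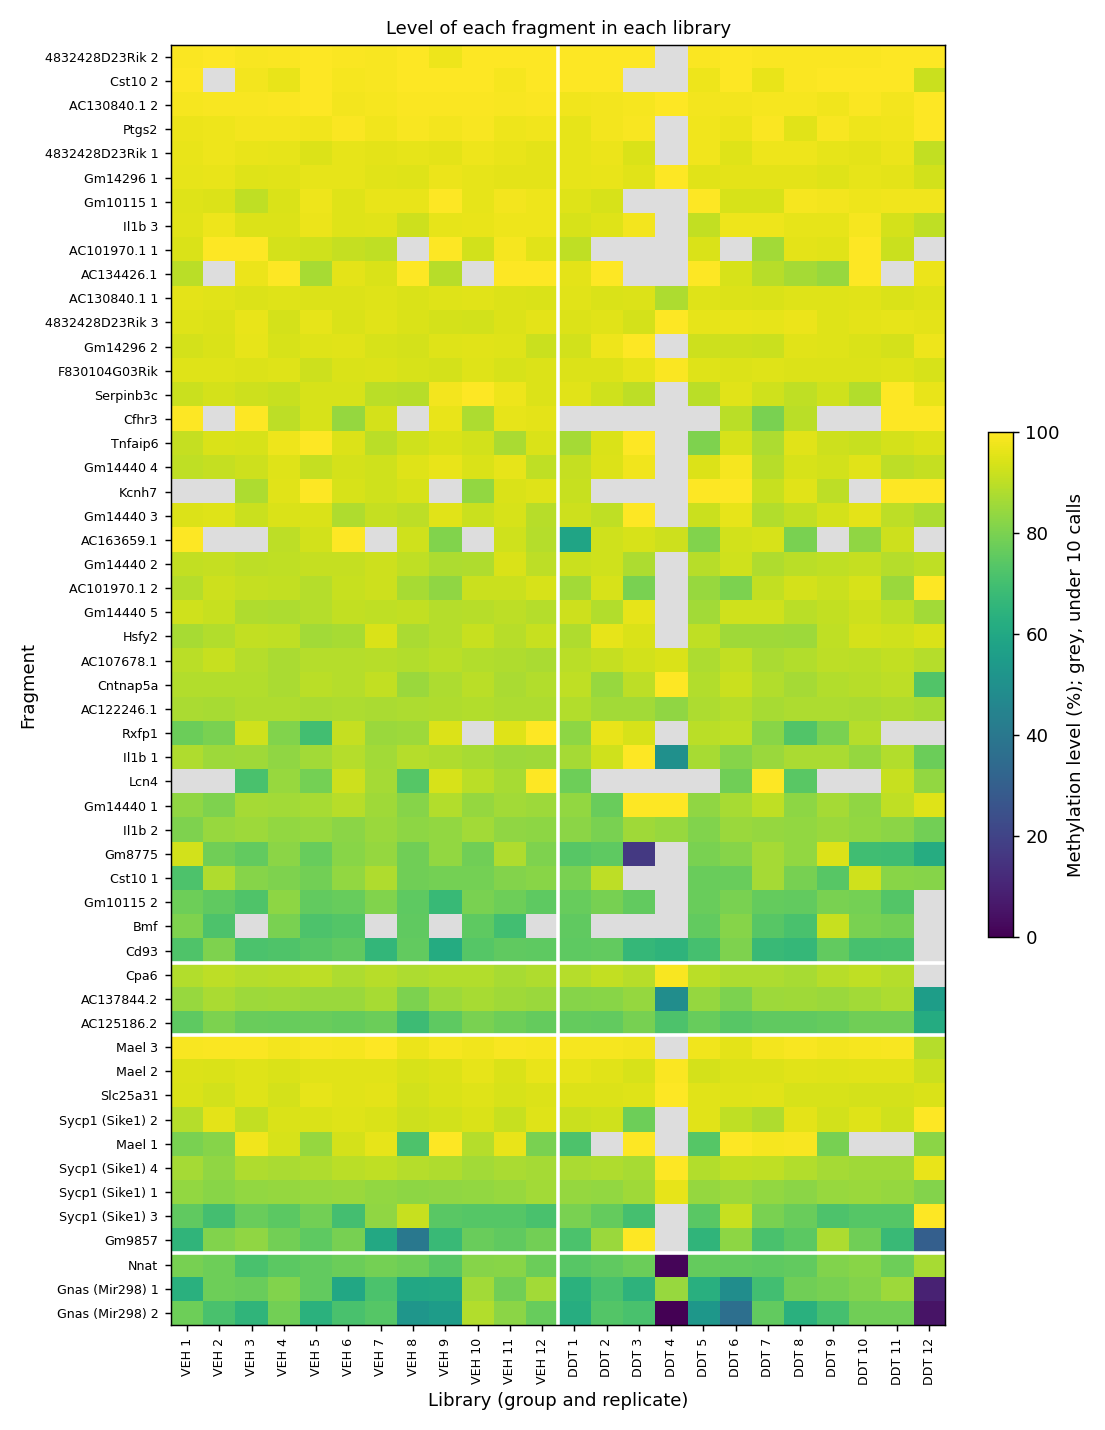
Methylation level (percent, colour) of the methylated cores described here (rows, grouped by kind and ordered by VEH mean) in the 12 VEH and 12 DDT libraries, with grey cells where a library had fewer than 10 calls. Most rows keep their colour across libraries, and DDT replicate 4, with a level at 23 cores, has the most grey cells.

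Whether the DDT litters held the same islands methylated was asked next. The DDT libraries did not choose the cores, but the VEH levels that did are also the reference of this contrast. Of the 51 cores with a level in at least 8 DDT libraries, 49 averaged 70% or more in DDT (96.1%), and the 2 below were both Gnas cores, at 66.7% and 55.7%. Without DDT replicates 4 and 12 it was 47 of 48. The other 3, at Lcn4, Cfhr3 and AC101970.1 (chr1:104159007-104159070), had a level in 5 to 7 DDT libraries and were not tested.

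Levels were compared between groups by an ANOVA F test for each fragment, over all 20225 fragments with a level in at least 8 libraries per group, with Benjamini-Hochberg adjustment. It called 0 of the 51 methylated cores and 0 of all fragments (0.0%) at an adjusted p of 0.05, with a smallest adjusted p of 0.869. At an unadjusted p under 0.05 it gave 1 core (1.96%), beside 845 of all tested fragments (4.18%), of which 2.93% were lower and 1.25% higher in DDT. A quasi-binomial regression, limma on log2((methylated + 1) / (not methylated + 1)) and edgeR's quasi-likelihood test also called 0 fragments after adjustment, and gave 4, 1 and 1 of the 51 and 1562, 709 and 613 of all fragments at an unadjusted p under 0.05. DDT averaged lower at 28 of the 51 cores and higher at 23, beside 56.9% lower over all tested fragments. The median difference was -0.18 points (DDT minus VEH), beside -0.16 over all tested fragments, and 37 cores differed by less than 2 points. A p above the threshold does not show that the groups were alike at a core.

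The 1 core was 4832428D23Rik at chr1:44481705-44481755, shown above as fragment 3. VEH ran from 93.1% to 96.8% with a median of 94.7%, and DDT from 93.5% to 100% with a median of 96.1%, so that the groups overlapped over most of their range. The difference was 1.32 points (94.8% ± 1.15 against 96.1% ± 1.53, n = 12 each, unadjusted p = 0.0259, permutation p = 0.021, two-sided). The highest DDT value came from replicate 4, on 11 calls, and without DDT replicates 4 and 12 the unadjusted p was 0.055. AC130840.1 at chr3:93922658-93922813 was the core that limma and edgeR gave: 99.1% ± 0.497 in VEH and 98.7% ± 0.717 in DDT (unadjusted p = 0.140 by the F test), and 98.5% ± 0.441 without DDT replicates 4 and 12 (unadjusted p = 0.00483, adjusted p = 0.949 by the F test).

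Differences past 5 points were found at 6 cores, each lower in DDT and each with an unadjusted p above 0.05 by the main F test. The share of all tested fragments past 5 points is not given here, and DDT averaged lower at 56.9% of all tested fragments. The largest difference among the cores was at the second Gnas core, 71.6% ± 10.7 in VEH and 55.7% ± 27.5 in DDT. It was -15.9 points (unadjusted p = 0.076 by the F test and under 0.05 by quasi-binomial regression, permutation p = 0.078). DDT replicate 4 stood at 0.0351% on 2853 calls, DDT replicate 12 at 5.36% on 1585 calls and DDT replicate 6 at 36.4%, all below the lowest VEH library, where the median DDT library had 338.5 calls. Without replicates 4 and 12 DDT averaged 66.3% ± 13.2, a difference of -5.25 points (unadjusted p = 0.314). At the adjacent Gnas core DDT replicate 12 stood at 9.68% and DDT replicate 4 at 84.7%, and the group averages were 73.2% ± 9.91 and 66.7% ± 20.9 (unadjusted p = 0.347). The DDT average there was 70.7% ± 10.9 without replicates 4 and 12, a difference of -2.50 points. These adjacent fragments thus lay at opposite ends of the scale in DDT replicate 4.

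The same libraries stood apart around Gnas, while at Nnat DDT replicate 4 lay below the VEH range and DDT replicate 12 (87.0%) above it. Of 29 fragments of the Gnas locus at 20% or more in VEH, DDT replicate 12 lay below the VEH range at 19 of 28 and above it at 1, DDT replicate 4 below at 12 of 20 and above at 4, and DDT replicate 6 below at 8 of 29 and above at 2. The Nnat core was at 1.29% on 309 calls in DDT replicate 4 and between 74.0% and 87.0% in the other DDT libraries, with a group average of 71.6% ± 22.5, and 77.1% ± 2.63 without replicates 4 and 12 (n = 10), beside 77.5% ± 3.16 in VEH. Over the 3 imprinted cores the library mean was 63.3% to 85.5% in VEH, 28.7% in DDT replicate 4, 34.0% in DDT replicate 12 and 53.8% to 80.6% in the other DDT libraries. The part that the fragment lengths and call shares of these libraries play in these levels was not tested.

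The germline starts were looked at in the same libraries. Over the 4 fragments with a level in every library (1 at Mael, 1 at Slc25a31 and 2 at Sycp1), the library mean was 90.3% ± 0.885 in VEH (88.3% to 91.5%), 98.9% in DDT replicate 4, 91.2% in DDT replicate 12 and 90.4% ± 0.530 in the other 10 DDT libraries (89.7% to 91.5%). Singly, the Mael core across the start averaged 95.2% ± 0.797 in VEH and 95.2% ± 1.73 in DDT (unadjusted p = 0.998), Slc25a31 94.6% ± 1.003 and 94.98% ± 1.73 (unadjusted p = 0.515), the Sycp1 intron core 84.0% ± 0.993 and 85.1% ± 3.75 (unadjusted p = 0.356), and the Sycp1 upstream core 87.5% ± 1.84 and 89.6% ± 4.42 (unadjusted p = 0.138). DDT replicate 4 was above the VEH range at each of the 4, on 12 calls at Slc25a31 and 14 at the Sycp1 upstream core. It had 446 calls at the Mael core and 1653 at the Sycp1 intron core. In DDT replicate 12 the Mael core (92.0%) and the Sycp1 intron core (81.5%) were below the VEH range and the Sycp1 upstream core (96.8%) above it. At Henmt1 the averages were 71.9% ± 12.2 and 74.1% ± 17.7 (unadjusted p = 0.730 by the F test). Quasi-binomial regression, which weights libraries by their calls, put DDT lower there instead (unadjusted p under 0.05). DDT replicate 12 was the lowest at 30.3%, on 868 calls, the most of any library there. DDT averaged 78.5% ± 10.6 without replicates 4 and 12.

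**Figure D5:**
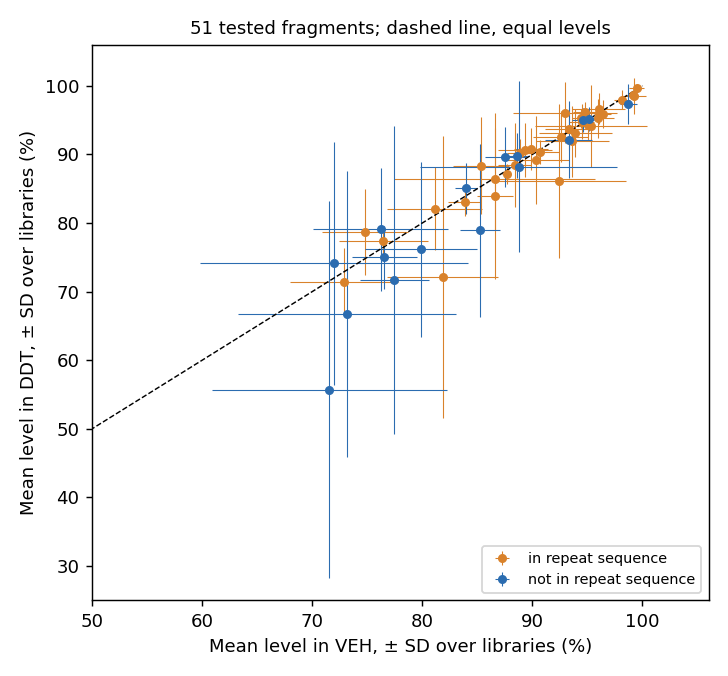
Mean level (percent) of each tested methylated core in VEH (horizontal) and in DDT (vertical), with bars of 1 SD over libraries, coloured by whether the core was repeat sequence. Most of the 51 cores lie close to the line of equal levels, and the second Gnas core, at 71.6% and 55.7%, lies farthest below it.

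The other 3 differences past 5 points were at AC137844.2, Gm8775 and AC163659.1. AC137844.2 ran from 80.1% to 87.3% in VEH, and in DDT stood at 49.2% in replicate 4, 55.6% in replicate 12 and 80.4% to 87.7% in the others, with averages of 85.2% ± 1.85 and 78.9% ± 12.6 (permutation p = 0.064) and 84.2% ± 2.24 without those replicates. Gm8775 at chr3:3935201-3935277 ran from 75.8% to 93.3% in VEH and had a difference of -9.78 points, with 6 of 11 DDT libraries below the VEH range, the lowest of them DDT replicate 3 at 16.7% on 12 calls (permutation p = 0.089). AC163659.1 at chr1:29368394-29368438 had a difference of -6.28 points on a median of 12 calls in VEH and 13 in DDT. With a minimum of 5 calls its unadjusted p was under 0.05 by the F test.

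Over the cores with a level, the library mean was 88.6% ± 0.993 in VEH (86.2% to 89.9%) and 87.3% ± 2.53 in DDT (80.8% to 89.6%), a difference of -1.31 points. The lowest DDT values were 80.8% in replicate 4 and 84.3% in replicate 12, and the difference was -0.717 points without replicate 4 and -0.357 without both. On the 20 cores with a level in all 24 libraries the means were 87.3% ± 1.23 and 85.7% ± 3.36, with 80.1% in DDT replicate 4 and 78.2% in DDT replicate 12 against 84.5% to 89.4% in VEH. Repeat cores averaged 90.7% ± 0.650 and 90.2% ± 1.04, and gene starts 84.1% ± 2.38 and 81.5% ± 5.66.

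Those libraries also lay outside the VEH range in both directions. DDT replicate 4 was below it at 6 of 23 cores and above at 12, and DDT replicate 12 below at 20 of 47 and above at 10, whereas the other DDT libraries were outside at 7.84% to 40.9% of their cores. The SD was larger in DDT than in VEH at 44 of the 51 tested cores (86.3%), beside 80.4% of the 6761 other tested cores, and at 32 of the 51 without DDT replicates 4 and 12, beside 60.8%. The median SD was 2.12 points in VEH and 3.75 in DDT, or 2.58 without those replicates. As a description, for 39 of the 54 cores the spread between VEH libraries was less than 1.5 times that of counting, with a median of 1.22 times. It was higher at the Gnas cores, AC137844.2 (5.58 times), Gm8762 (3.80), the Sycp1 upstream core (3.15), Nnat (2.90) and Henmt1 (2.75), among others. The counting spread treats the calls of 1 read as if they were independent.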

How the data were processed

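RRBS libraries of infant BAT, 12 DDT and 12 VEH, were analysed. The authors trimmed single-end reads with Scythe and Sickle, aligned them to GRCm38 with Bismark 0.15.0 and Bowtie2, and deposited counts of methylated and of not methylated calls per MspI fragment, not normalized, with each fragment's nearest gene, position relative to it and place in or near a CpG island. The rows analysed here lie on chromosomes 1 to 3, and other fragments were not analysed here.

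Levels were methylated calls over all calls where a library had at least 10. Members were all island cores that met the rule, so that none was dropped, and 3 were not tested. Fragments with a level in at least 8 libraries per group entered a per-fragment F test with Benjamini-Hochberg adjustment over 20225 fragments, after the test named in the study's statistics. Permutation tests of single fragments drew 100000 two-sided resamples. The ± values are SDs between libraries, which pool littermates, and the call numbers behind them set their precision. Calls of 1 read are not independent, so counting intervals would be too narrow.

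Sequence, masking, the 1702684 MspI sites and copies of 30-base ends came from GRCm38, gene positions from GENCODE M21 and promoters from RefSeq. Alternatives were other tests, call minimums, level thresholds, left-out libraries and the replicate number as a block, and the tests were tried on simulated calls. Members and lists were chosen with earlier results of these data known. Named singly were genes with 4 or more members, members near gene starts, the 10 smallest p, the 5 largest SDs, list genes and cores beside the threshold. The other repeat cores, the pseudogenes and the cores whose sequences are printed were chosen after their values were seen. The core of 1 gene is counted but not reported here. Software was R 4.3.3 (edgeR 4.0.16, limma 3.58.1) and Python 3.11.15 (SciPy 1.17.1, pandas 2.3.3, matplotlib 3.10.9, NumPy 2.4.6).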

Additional observations from a re-analysis of the deposited data

Results flagged for a closer look

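Of 21 groups of 4 to 10 libraries at the methylated cores, 2 held a library far from the others by Dixon's criterion, which flags about 1 in 20 groups by chance. At AC163659.1 the lowest of 10 DDT libraries, replicate 1, stood at 58.3% on 12 calls. At Cst10 at chr2:149286496-149286554 the lowest of 10 DDT libraries, replicate 12, stood at 91.8%, where the 10 had a median of 100%.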

How the results depend on the processing

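The number of fragments called was 0 under each of the 32 alternatives run. The number of methylated cores was 54, and 44 to 62 under other call minimums and level thresholds (52 to 54 without each VEH library). Cores at an unadjusted p under 0.05 numbered 1, and 4 by quasi-binomial regression, 2 with at least 5 calls, 2 with at least 20 calls and 1 to 3 with each library left out, with 3 without DDT replicate 12 and 2 without VEH replicate 2 or DDT replicates 4, 5, 7 or 8. With the replicate number as a block it was 0. The numbers do not pair the litters, since correlations of same-numbered libraries ran from -0.180 to 0.199 and 1 library was closest to its own number. The mean difference over cores was -1.31 points, and -3.21 with pooled calls, -2.58 for cores outside repeats (chosen after seeing the data) and -1.53 to -0.717 with each library left out. The share in gene bodies was 9.26% by the authors' classes and 24.1% by GENCODE M21. The causes of these shifts were not tested. The share at 70% or more in DDT (95.5% to 97.9%), the CpG ratio and the island counts moved by less than the spread or 1.5 times. Cores with few calls, such as AC163659.1, limit single levels.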
